A study of Rattus norvegicus with 8 samples.

Results

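The genes described here encode enzymes of glycolysis and of lactate metabolism. The list held 10 symbols, and the members were all protein-coding rows of the table that carried one of them. Rows were analysed for 8 of the 10 genes, namely Hk1, Pfkm, Pfkp, Aldoa, Gapdh, Pgk1, Eno1 and Ldhb. Eno2 and Ldha had no row under these symbols in the table and so were not analysed here. The 8 genes held 29 of the 73922 polyadenylation sites in the table and were 8 of its 12239 genes. Hypothalamus was taken from 8 male Long-Evans rats, all adult, and the libraries were made by WTTS-seq (whole transcriptome termini site sequencing), which counts transcripts by their polyadenylated 3′ ends. In the diet-induced obesity group, 4 rats had free access to a high fat diet, and in the control group 4 rats ate standard chow. Tissue was taken after 36 days in both groups, and the labels name no transgene, drug or other manipulation. Body weights were not analysed here. Both groups carry the library numbers 1 to 4, and the labels do not say what libraries of the same number share.

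Glycolysis splits glucose into pyruvate in the cytosol and yields ATP without oxygen. Lactate dehydrogenase then interconverts pyruvate and lactate, and in brain tissue astrocytes are known for high glycolytic activity and for releasing lactate that neurons can take up. Several steps are carried out by isoenzymes from separate genes that differ between tissues, such as the muscle type (Pfkm) and platelet type (Pfkp) of phosphofructokinase. The hypothalamus senses glucose and controls feeding, so the comparison asked whether the output of these genes, or the 3′ end at which their transcripts stopped, differed between rats on the high fat diet and rats on chow.

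The libraries held 1417531 to 1957726 reads. Reads of the 8 genes made up 0.0672% to 0.135% of each library and came to 13210 in all. Control library 1 had no read at 8 of the 29 sites of the 8 genes, against 0 to 5 sites in the other libraries. Over the whole table it also had the most sites without a read, 14788. Neuronal, astrocyte and oligodendrocyte marker genes were all detected, 8 of 8 in each list, as were 8 of 8 markers of hypothalamic neurons. The least different libraries were control 2 and obesity 2, whose site counts differed by 3.30 chi-square per site. Sampling noise gives about 1, so each library was counted once.

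Levels of genes are stated as CPM (reads scaled to a common TMM-adjusted library size, that of all reads at genes). Each transcript gives its reads at its end, so levels were compared between genes without a correction for length. Gapdh was the most abundant of the 8 genes, at a mean of 506 CPM over the 8 libraries and rank 265 of 12239 genes. Pfkp followed with 171 CPM, and its libraries overlapped those of the next 4 genes. Pfkm at 125, Hk1 at 113, Aldoa at 105 and Ldhb at 104 CPM came next, and these 4 did not differ from each other beyond their spread between libraries. Eno1 had 34.0 CPM and Pgk1 9.75 CPM, and the median of all genes was 20.5 CPM. Pgk1 was thus the only one of the 8 genes below the median, and its low count limits what can be said of it.

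**Figure D1:**
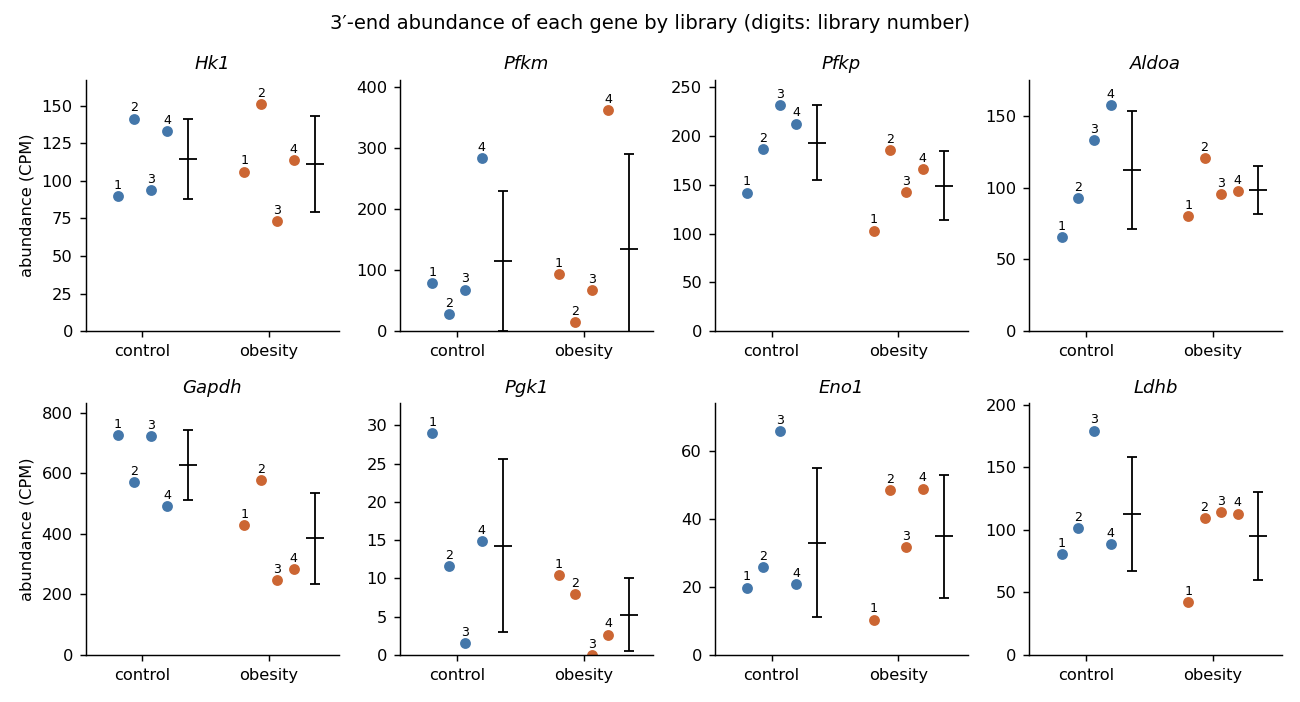
Abundance of the 8 genes (CPM, linear axes from 0) in each control and obesity library, with the library number beside each point and the mean and SD of 4 libraries in black. The groups overlap for all 8 genes, and in Pfkm the libraries numbered 4 are the highest in both groups, at 283 and 363 CPM.

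Without the library number in the fit, none of the 8 genes passed an adjusted p of 0.1 (edgeR quasi-likelihood test, Benjamini-Hochberg adjustment over all genes), and 0.0% of all genes did. At an unadjusted p under 0.05, 1 of 8 genes was called by edgeR and 1 of 8 by the DESeq2 Wald test, against 5.28% and 6.06% of all genes. In 6 of 8 genes the log2 fold change was below 0, as in 49.2% of all genes. The median log2 fold change of the 8 genes was -0.21, and that of all genes 0.01. There was no gene among the 8 whose groups did not overlap, against 3.53% of all genes. Same-numbered libraries deviated together from their group means, so a fit with the library number as a block is given beside these values. With the block, 3 of 8 genes had an unadjusted p under 0.05 (Gapdh, Pgk1 and Pfkp), against 10.9% of all genes, and 0 of 8 passed an adjusted p of 0.1, against 0.123% of all genes.

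Gapdh encodes glyceraldehyde-3-phosphate dehydrogenase, the enzyme at which glycolysis first yields NADH, and its transcript is widely used as a reference in expression assays. It had 726, 571, 723 and 492 CPM in controls 1 to 4, and 429.8, 578, 248 and 284 CPM in obesity libraries 1 to 4. These rested on 662 to 1027 reads per control library and 429 to 727 per obesity library. Obesity library 2 lay within the range of the controls, and the other 3 obesity libraries were below every control. The means were 628 ± 116 and 385 ± 151 CPM (SD, n = 4), and the log2 fold change was -0.71 (SE 0.25) with an unadjusted p of 0.0115 and an adjusted p of 0.905 (edgeR). Obesity was lower in 3 of 4 pairs of same-numbered libraries. With the library number as a block the log2 fold change was -0.77 (SE 0.18) with an unadjusted p of 0.000234 and an adjusted p of 0.111 (edgeR).

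The call on Gapdh depended on the test and on the libraries numbered 2. The DESeq2 Wald test with the block gave an adjusted p of 0.0190, in a fit where 4.56% of the genes with an adjusted p were called. Without both libraries numbered 2, the edgeR fit with the block gave a log2 fold change of -1.04 and an adjusted p of 0.000485, and 4.63% of all genes were called. Leaving out number 1, 3 or 4 in turn gave -0.78, -0.51 and -0.76, with adjusted p-values of 0.165, 0.602 and 0.496 (edgeR, block). Without obesity library 2 alone and without the block, the adjusted p was 0.290. Obesity library 2 also stood apart by Gh1 and Lhb, transcripts of the anterior pituitary. Gh1, growth hormone, had 87 reads there and 0 to 1 in the other libraries, and Lhb, the beta subunit of luteinizing hormone, had 58 against 0 to 9. Pomc and Cga, the other pituitary markers analysed, did not single out this library. Pomc had 75 reads there and 79 in control library 2. Cga had 11 there and 71 in both control library 1 and obesity library 3. The 4 pituitary markers summed to 184 CPM in that library and to at most 89.7 CPM in any control. The part of pituitary tissue in the Gapdh values of that library was not tested.

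Of the 9 lists of cell type markers, 6 had a median log2 fold change below 0 and 3 above 0, and 0 genes of these lists were called. The median log2 fold change was -0.20 for oligodendrocyte markers (8 of 8 lower), -0.19 for astrocyte markers (6 of 8) and -0.14 for neuronal markers (5 of 8). It was -0.10 for microglia, -0.39 for endothelium and 0.15 for red blood cells. For anterior pituitary it was 0.70, and -0.18 with the library number as a block. It was 5.25 for choroid plexus, whose 1 gene, Ttr, had 144 reads in obesity library 4 and 0 to 2 elsewhere. Markers of hypothalamic neurons had a median of -0.10, with 3 higher and 5 lower. Avp (vasopressin) was at -0.44 (edgeR unadjusted p 0.0336) and Oxt (oxytocin) at -0.74 (edgeR unadjusted p 0.0241). Sim1, on the same list, went the other way, at 1.15 (edgeR unadjusted p 0.0379). Each had an adjusted p of 0.905, and all, like Gh1, Lhb and Ttr, are named after their values were seen. For astrocytes, neurons and oligodendrocytes the summed levels overlapped between the groups. Astrocyte markers summed to 2794 to 3688 CPM on chow and 2285 to 3443 in obesity, neuronal markers to 4414 to 7732 and 4132 to 6794, and oligodendrocyte markers to 17071 to 21982 and 13177 to 20683. The part of cell composition in the Gapdh values was not tested. In bulk tissue, fewer cells of a type and less RNA per cell cannot be told apart.

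The upstream steps of the pathway showed smaller differences. Hk1 encodes hexokinase 1, which traps glucose in the cell as glucose 6-phosphate and is the main hexokinase of brain. Its abundance was 89.7, 141, 93.9 and 133 CPM in controls 1 to 4 and 106, 151, 73.1 and 114 CPM in obesity libraries 1 to 4. The groups overlapped, and obesity was lower in 2 of 4 pairs. The groups differed by -0.05 on the log2 scale (SE 0.26, edgeR adjusted p 0.993).

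Pfkp had 142, 187, 232 and 213 CPM in controls 1 to 4 and 103, 186, 142 and 166 CPM in obesity libraries 1 to 4. Phosphofructokinase catalyses the committed step of glycolysis, and the platelet type is one of its isoenzymes in brain. Obesity was lower in 4 of 4 same-numbered pairs, though by less than 1 CPM between the libraries numbered 2, and the groups overlapped. The means were 193 ± 38.8 and 149 ± 35.6 CPM (SD, n = 4), and the log2 fold change was -0.37 (SE 0.23, edgeR unadjusted p 0.129, adjusted 0.912). With the block it was -0.38 (SE 0.17) with an unadjusted p of 0.0343 and an adjusted p of 0.400 (edgeR).

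Aldoa encodes aldolase A, which cleaves fructose 1,6-bisphosphate. Its abundance was 65.7, 93.0, 133 and 158 CPM in controls 1 to 4 and 80.2, 121, 95.7 and 97.8 CPM in obesity libraries 1 to 4. All 4 obesity libraries lay inside the range of the controls. The log2 fold change was -0.19 (SE 0.27, edgeR adjusted p 0.980).

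The later steps were read at fewer reads per gene. Pgk1 encodes phosphoglycerate kinase 1, which makes the first ATP of the pathway, and its transcripts were counted at 1 site (chrX:77279364-77279373, plus strand) with 109 reads in all. The reads were 41, 18, 2 and 20 in controls 1 to 4, and 14, 10, 0 and 4 in obesity libraries 1 to 4. Obesity was lower in 4 of 4 pairs, while control library 3 lay among the lowest libraries and the groups overlapped. The 0 in obesity library 3 allows up to 3 counts, or 1.70 CPM. The means were 14.3 ± 11.3 and 5.24 ± 4.76 CPM (SD, n = 4), and the log2 fold change was -1.47 (SE 0.87) with an edgeR unadjusted p of 0.112 and an adjusted p of 0.912. With the block it was -1.58 (SE 0.64), with an unadjusted p of 0.0200 and an adjusted p of 0.346 (edgeR).

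Eno1 encodes enolase 1, which forms phosphoenolpyruvate, and it too had 1 site (chr5:167299584-167299620, plus strand). Its abundance was 19.8, 25.8, 65.7 and 20.8 CPM in controls 1 to 4 and 10.4, 48.5, 31.7 and 48.9 CPM in obesity libraries 1 to 4. Control library 3 was the highest and obesity library 1 the lowest of the 8. The log2 fold change was 0.08 (SE 0.47, edgeR adjusted p 0.993), and its sign turned in 7 fits that left out libraries.

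Ldhb encodes the B subunit of lactate dehydrogenase, the form common in heart and neurons. Its abundance was 80.5, 101, 179 and 88.5 CPM in controls 1 to 4 and 42.3, 109.6, 114 and 113 CPM in obesity libraries 1 to 4. Obesity library 1 was the lowest of the 8 and control library 3 the highest, and the other libraries of both groups were mixed. The log2 fold change was -0.24 (SE 0.32, edgeR adjusted p 0.977).

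**Figure D2:**
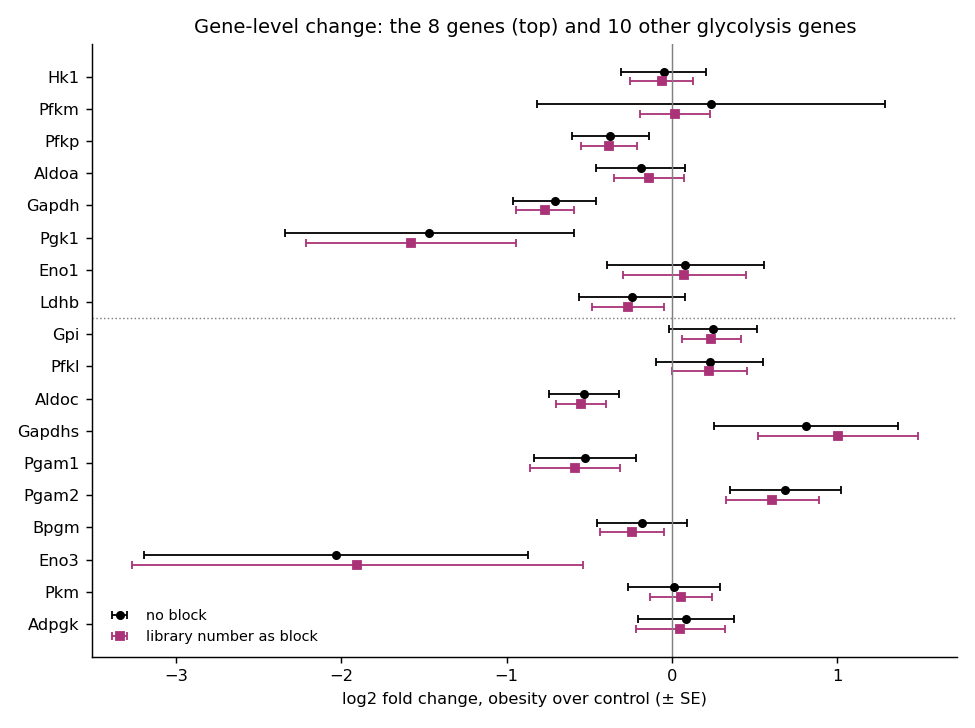
Log2 fold change of obesity over control (points) with its standard error (bars) for the 8 genes and for 10 other glycolysis genes, from the edgeR fits without (black circles) and with (purple squares) the library number as a block. Gapdh lies at -0.71 and -0.77, and the standard error of Pfkm is 1.05 without the block and 0.21 with it.

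Pfkm, the muscle type of phosphofructokinase, stood apart from the other 7 genes by its spread within the groups. Its abundance was 79.1, 27.8, 68.1 and 283 CPM in controls 1 to 4 and 93.5, 14.3, 68.0 and 363 CPM in obesity libraries 1 to 4. The libraries numbered 4 were the highest of each group and those numbered 2 the lowest, while the groups overlapped throughout. The means were 114.6 ± 114.7 and 134.7 ± 155.7 CPM (SD, n = 4). Between the groups the log2 fold change was 0.24 (SE 1.05), and with the block 0.02 (SE 0.21), with an edgeR adjusted p of 0.993 and 0.987.

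Differences between library numbers were then tested in the edgeR fit with the block, a test chosen after these values were seen. At an adjusted p under 0.1, 3 of 8 genes differed between numbers, Pfkm, Pgk1 and Ldhb, against 10.1% of all genes. The adjusted p was 3.45e-08 for Pfkm, 0.0354 for Pgk1 and 0.0623 for Ldhb (edgeR). Pfkm had the fourth lowest p of all 12239 genes for the library number, and it passed in each of the 5 other fits run, with adjusted p-values of at most 0.00692. Ldhb did not pass by the DESeq2 likelihood ratio test (adjusted p 0.104). Leaving out both libraries of 1 number gave 1 called gene without number 1 or 3, 5 without number 2 and 3 without number 4.

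The ratio between library numbers placed Pfkm in the upper end of all genes. Its mean was 86.3, 21.0, 68.0 and 323 CPM for the numbers 1 to 4, and the highest mean was 15.4 times the lowest. Of the 8333 genes of 10 CPM or more, 8 had a mean of 0 CPM for a number, so their ratio had no finite value. These 8 were left out, though by that 0 they too would rank above Pfkm. Over the rest, the median of that ratio was 1.75 and the 99th percentile 8.46, and 26 genes were above Pfkm. Pgk1 had a larger ratio, 25.1, but at a mean of 9.75 CPM it was below that cutoff. Within 1 Mb on either side of the main Pfkm site, 4 of 29 other genes (13.8%) were called between numbers, near the 10.1% of all genes.

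The share of Pfkm in the reads of Pfkm and Pfkp together gives a comparison within each library that does not depend on library size. It was 35.8%, 13.0%, 22.7% and 57.1% in controls 1 to 4 and 47.5%, 7.14%, 32.3% and 68.6% in obesity libraries 1 to 4. The groups overlapped, and Pfkm had more reads than Pfkp in both libraries numbered 4 and in no other library. The means were 32.1% ± 19.1 and 38.9% ± 25.9 (SD, n = 4), a difference of 6.77 percentage points (2-sided exact permutation p 0.686, where the smallest possible is 0.0286). Within pairs of the same number the obesity share was higher in 3 of 4, by 11.8, 9.63 and 11.5 points, and lower by -5.81 points in the pair numbered 2. Over the pairs the exact sign-flip permutation p was 0.25, where 0.125 is the smallest possible. Without obesity library 4 the difference was -3.13 points.

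The 29 sites were then examined one by one, all on the strand that carries most reads of their gene. Gapdh, Pgk1 and Eno1 each had 1 site, Ldhb 2, Aldoa 3, Pfkm 4, Pfkp 7 and Hk1 10, where protein-coding genes had a median of 3 sites. Sites are numbered from 5′ to 3′ along the gene, and their positions are on Rnor_6.0. Whether a site lay in an exon, an intron or a UTR was not determined. Site abundance is in CPM of all sites, including those without a gene, so it is lower than that of the same reads at the gene level.

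No site passed an adjusted p of 0.1 between the groups, either without the block (0 of 29, against 0.00135% of all sites) or with it (0 of 29, against 0.00541%), in the edgeR fit. At an unadjusted p under 0.05 there were 2 of 29 without the block, against 3.14% of all sites, and 5 of 29 with it, against 6.09%. The DESeq2 Wald test gave an adjusted p to 12 of the 29 sites without the block and to 6 with it. It called 0 of the 12, against 0.038% of all sites with an adjusted p, and 1 of the 6, that of Gapdh, against 6.46%. There was no site among the 29 whose groups did not overlap, against 3.11% of all sites. Of the 29 sites, 14 were lower in obesity, and 14 had a read in all 8 libraries.

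The Gapdh site (chr4:157676392-157676419, minus strand) held all reads of the gene and so repeated its difference, at 550 ± 103 and 323 ± 129 CPM (SD, n = 4). Its log2 fold change was -0.77 (SE 0.31, edgeR unadjusted p 0.0255). The other site at an unadjusted p under 0.05 was the most 3′ of the 10 Hk1 sites (chr20:31910672-31910681, minus strand), which was named after its values were seen. It had 6, 14, 1 and 7 reads in controls 1 to 4 and 2, 0, 0 and 2 in obesity libraries 1 to 4, with an unadjusted p of 0.0406 in edgeR. Control library 3 lay among the obesity libraries, and the site held 2.50% of Hk1 reads.

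Hk1 spread its reads over more sites than the other 7 genes. The main site, the ninth of the 10 (chr20:31911454-31911483), held 41.3% of its reads and had 85, 91, 58 and 63 reads in controls 1 to 4 and 66, 69, 33 and 63 in obesity libraries 1 to 4. In CPM, obesity was lower in 4 of 4 pairs and the groups overlapped. Its mean was 46.1 ± 5.02 CPM on chow and 34.3 ± 12.9 in obesity (SD, n = 4), and its log2 fold change was -0.43 (SE 0.38, edgeR unadjusted p 0.276). Site 6 (chr20:31914121-31914162) held 22.0%, and site 2 (chr20:31927874-31927904) 11.5%. Site 2 lay 17206 bases before the most 3′ site and had 0, 38, 7 and 6 reads in controls 1 to 4 and 25, 45, 15 and 11 in obesity libraries 1 to 4. Obesity was higher at site 2 in 4 of 4 pairs, with a log2 fold change of 0.91 (SE 0.89, edgeR unadjusted p 0.321, with the block 0.0493), and the groups overlapped. Site 4 (chr20:31925528-31925530) had a log2 fold change of 0.62 (SE 0.89), with 5.06 ± 6.05 CPM on chow and 7.73 ± 3.38 in obesity (SD, n = 4).

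In Aldoa, Ldhb and Pfkp the most 3′ site took most of the reads. Aldoa site 3 (chr1:198228385-198228405, minus strand) held 92.9% of Aldoa reads, with a log2 fold change of -0.36 (SE 0.36). Aldoa site 2 (chr1:198228518-198228541), 132 bases before it, had 0, 4, 5 and 2 reads in controls 1 to 4 and 15, 8, 0 and 19 in obesity libraries 1 to 4. It was higher in 3 of the 4 obesity libraries than in any control and at 0 in the remaining one, with a log2 fold change of 1.74 (SE 1.13, edgeR unadjusted p 0.143). Ldhb site 2 (chr4:176701978-176702005, minus strand) held 95.4% of Ldhb reads, with a log2 fold change of -0.32 (SE 0.42).

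Pfkp site 7 (chr17:68510757-68510766, minus strand) held 80.6% of Pfkp reads. It had 170, 240, 272 and 198 reads in controls 1 to 4 and 111, 188, 218 and 173 in obesity libraries 1 to 4, and was lower in obesity in 4 of 4 pairs by CPM. Its mean was 141 ± 43.3 CPM on chow and 100.1 ± 28.3 in obesity (SD, n = 4), and the log2 fold change was -0.49 (SE 0.33, edgeR unadjusted p 0.160, with the block 0.0466). Site 4 (chr17:68524023-68524024) had a log2 fold change of -1.20 (SE 0.84, edgeR unadjusted p 0.177) on 1 to 13 reads per library.

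The reads of Pfkm were concentrated at a site that is not its most 3′ one. Site 3 of 4 (chr7:139712635-139712656, plus strand) lay 9479 bases before the most 3′ site and held 88.7% of Pfkm reads, against 2.58% at the most 3′ site. It had 91, 15, 78 and 370 reads in controls 1 to 4 and 92, 7, 111 and 510 in obesity libraries 1 to 4. The libraries numbered 4 had the most reads and those numbered 2 the fewest in both groups. Its share of Pfkm reads was 34.9% and 38.9% in the libraries numbered 2, and 73.0% to 97.1% in the other 6. Between the groups its log2 fold change was 0.15 (SE 1.09, edgeR adjusted p 1.00). Site 2 (chr7:139707837-139707859) had 9, 20, 2 and 4 reads in control and 34, 7, 3 and 16 in obesity libraries 1 to 4, and did not have this order of library numbers.

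At an adjusted p under 0.1, 6 of 29 sites differed between library numbers, against 8.66% of all sites (edgeR). They were Pfkm site 3, Pfkp site 5, Hk1 sites 2 and 6, the Pgk1 site and Ldhb site 2. Pfkm site 3 had an adjusted p of 4.50e-09 and passed in the 5 other fits run, with at most 7.56e-05. The DESeq2 likelihood ratio test called 3 of the 21 sites that it gave an adjusted p, against 8.08% of all sites, and leaving out both libraries numbered 1 left 3. Hk1 site 6 had 11, 45, 37 and 58 reads in controls 1 to 4 and 6, 52, 25 and 48 in obesity libraries 1 to 4, so the libraries numbered 1 were the lowest of each group. Its adjusted p was 0.0122 and, without both libraries numbered 1, 0.771 (edgeR).

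Pfkp site 5 (chr17:68521167-68521172, minus strand) was read in the libraries numbered 4 alone, and like Hk1 site 6 it is named after its values were seen. It had 54 reads in control library 4, 69 in obesity library 4, and 0 in the other 6 libraries. It held 18.9% and 27.5% of the Pfkp reads of these 2 libraries and lay 10407 bases before the most 3′ site. Its adjusted p between numbers was 1.28e-06 in edgeR and 0.582 by the DESeq2 likelihood ratio test. Over the whole table, 31 sites had at least 20 reads in both libraries of 1 number and 0 in the other 6. Of these, 14 belonged to number 4, 12 to number 2, 5 to number 3 and 0 to number 1, while 0 sites had this pattern in a control and an obesity library of different numbers.

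**Figure D3:**
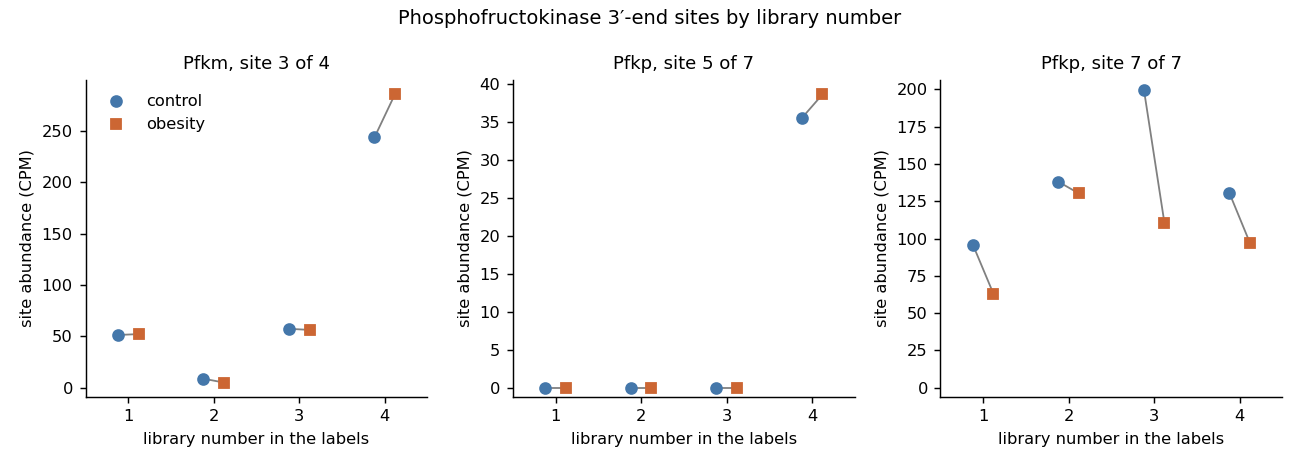
Site abundance (CPM, linear axis) of Pfkm site 3, Pfkp site 5 and Pfkp site 7 against the library number in the labels, with control as blue circles, obesity as orange squares and a line joining libraries of the same number. Pfkp site 5 has reads in the libraries numbered 4 alone, at 35.6 and 38.7 CPM, and in Pfkm site 3 the same libraries are the highest.

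The use of sites within a gene was compared between the groups in the 5 genes with 2 or more sites. None of the 5 passed an adjusted p of 0.1 (edgeR diffSpliceDGE, Simes), against 0.0121% of all genes tested, and 0 of 5 had an unadjusted p under 0.05, against 1.84%. The lowest unadjusted p was 0.190, for Aldoa. Aldoa site 2 held 1.67% ± 1.43 of Aldoa reads on chow and 8.00% ± 6.57 in obesity (SD, n = 4). The main Hk1 site held 48.0% ± 13.7 of Hk1 reads in control and 36.2% ± 8.41 in obesity, and the main Pfkp site 82.2% ± 9.46 and 79.0% ± 7.43 of Pfkp reads (SD, n = 4). These differences were smaller than or similar to the spread between libraries.

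**Figure D4:**
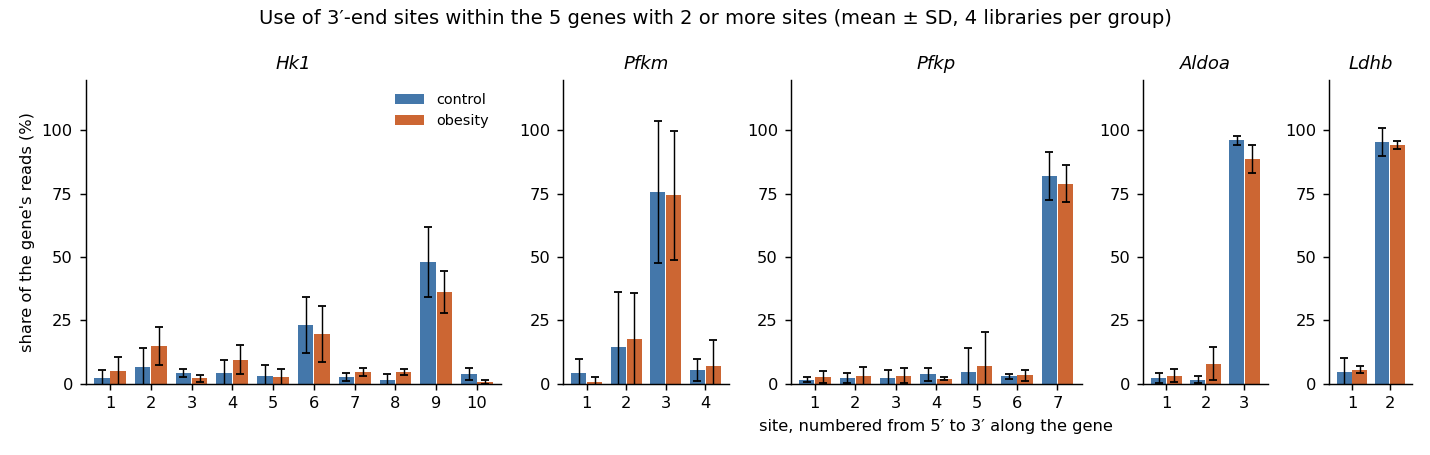
Share of the reads of a gene (%) at each of its sites, numbered from 5′ to 3′, in control (blue) and obesity (orange), as mean and SD of 4 libraries for the 5 genes with 2 or more sites. Pfkm is read mainly at site 3 of 4, while Aldoa, Pfkp and Ldhb are read mainly at the most 3′ site.

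The other genes of glycolysis were described from a list of 17, of which 10 were analysed. Neither direction had a called gene, 6 were higher and 4 lower in obesity, and the median log2 fold change was 0.05. At an unadjusted p under 0.05 there was 1 lower gene without the block, and 2 higher and 2 lower genes with it. The most abundant was Aldoc, the aldolase of brain that is known as an astrocyte gene, with 800 to 1479 reads per library. It had 926 ± 154 CPM on chow and 640 ± 163 in obesity (SD, n = 4), and the log2 fold change was -0.53 (SE 0.21, edgeR unadjusted p 0.0210, adjusted 0.905). With the block its adjusted p was 0.159 in edgeR and 0.0569 by the DESeq2 Wald test. It was 0.00220 when both libraries numbered 2 were left out (edgeR). Leaving out number 1, 3 or 4 in turn gave 0.391, 0.663 and 0.569 for Aldoc (edgeR, block). Gapdh and Aldoc passed under the same 2 settings. In these, 4.56% of the genes with an adjusted p (DESeq2) and 4.63% of all genes (edgeR) were called. Gpi, glucose-6-phosphate isomerase, had the next most reads and differed by 0.25 on the log2 scale (SE 0.27, edgeR adjusted p 0.962).

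A second list held 36 genes of glucose and lactate transport, pyruvate dehydrogenase, shuttles and their regulators, and 30 were analysed. Of these, 15 were higher and 15 lower, 0 were called, and the median log2 fold change was 0.02. Pfkfb3, whose product makes the activator fructose 2,6-bisphosphate of phosphofructokinase, was the one gene at an unadjusted p under 0.05 without the block. It had 36, 47, 27 and 44 reads in controls 1 to 4 and 79, 65, 81 and 55 in obesity libraries 1 to 4. All 4 obesity libraries were above every control in CPM, as 3.53% of all genes had groups that did not overlap. Its mean was 27.4 ± 5.17 CPM on chow and 48.1 ± 9.43 in obesity (SD, n = 4), and the log2 fold change was 0.81 (SE 0.31, edgeR unadjusted p 0.0174, adjusted 0.905). With the block, Pfkfb3 had an unadjusted p of 0.0109 (adjusted 0.289) and Got2 one of 0.0433 (adjusted 0.439) in edgeR, and these were the 2 genes of the list under 0.05. The genes with most reads were Got2, the mitochondrial aspartate aminotransferase, at -0.37 (SE 0.22), and Slc25a12, an aspartate and glutamate carrier of the same shuttle, at 0.15 (SE 0.23) on the log2 scale. Without both libraries numbered 2, Got2 had a log2 fold change of -0.55 and an adjusted p of 0.0749 in the edgeR fit with the block, where 4.63% of all genes were called. Leaving out number 1, 3 or 4 in turn gave Got2 an adjusted p of 0.542, 0.842 and 0.906 (edgeR, block).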

How the data were processed

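WTTS-seq libraries were made from total RNA (fragmentation, poly(A)+ enrichment, first-strand cDNA, size selection, PCR), per the labels. The authors deposited raw read counts per polyadenylation site; Bowtie2 2.2.3 and Rnor_6.0 are named in the submitters' processing notes. How read ends were clustered, the annotation and the cutoffs are not given in the sources used here. The lowest site total was 30 reads, and 1 line without a site (the column total of control library 1) was left out. The publication linked to these libraries describes another exposure, so groups follow the labels.

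Counts per gene were sums over all rows of a symbol. Genes and sites were each fitted as a whole table with the quasi-likelihood test of edgeR 4.0.16 (robust, TMM) in R 4.3.3, with Benjamini-Hochberg adjustment and a threshold of 0.1. Alternatives used DESeq2 1.42.0 (size factors, Wald test), filterByExpr, the library number as a block, left-out libraries, the main strand, and sites of at least 100 reads. The edgeR fits were tried on simulated data with large fold changes and no difference between library numbers. That did not cover the tests between numbers or smaller changes. The Pfkm share was compared by exact permutation. The Ldha and Eno2 shares were not computed.

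Deviations from group means over 4417 genes (400 reads or more in all) correlated at 0.351 to 0.562 between same-numbered libraries and at -0.337 to 0.147 between others. Each of the 4 same-numbered pairs was above 0.1 and above every other pair, so fits with the library number as a block were run as alternatives. The main fits between the groups used the group alone. Without the block, p-values measure the spread between the 8 rats' libraries within their groups. With the block, they measure the spread left after group and library number are fitted. Reads carry no molecular identifiers, so floors (3 counts) cover counting error only. Named were all members, each gene's main site, the 5 higher and 5 lower sites with the lowest unadjusted p among those of at least 5 CPM in a group, and, of the other pathway lists, genes with an unadjusted p under 0.05 and the 2 with most reads. Members and lists were chosen with earlier results of these data known. Sequences are not printed, since no genome of the build was used here.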

Additional observations from a re-analysis of the deposited data

Results flagged for a closer look

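In each group of 4 libraries, the highest and the lowest were compared with the other 3 by Dixon's test. The 46 checks covered the 8 genes and a part of their sites, and the remaining sites were not checked. In 5 of these checks, over 4 libraries, a library lay apart, where chance gives about 2.3 if the checks were independent. They were not, since a gene and its main site share reads, and Pfkp site 5 was chosen for the pattern that it shows. Eno1 had 65.7 CPM in control library 3, against 19.8 to 25.8 CPM in the other controls. Ldhb had 42.3 CPM in obesity library 1, against 109.6 to 114 CPM in the other obesity libraries, and its main site had 30.0 CPM there, against 89.3 to 96.7 CPM. Pfkp site 5 had 35.6 CPM in control library 4 and 38.7 CPM in obesity library 4, against 0 in all other libraries.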

How the results depend on the processing

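The count of genes at an adjusted p under 0.1 was 0 of 8 with DESeq2 size factors, the DESeq2 Wald test, filterByExpr, the edgeR block, the main strand, sites of at least 100 reads and each library left out. It was 1 (Gapdh) with the block in the DESeq2 Wald test, and 0 to 1 with the block leaving out both libraries of a number. Site use was called in 0 of 5 genes in every setting run. Of 29 sites, 0 were called with the same scalings, filters and left-out libraries, and 1 (the Gapdh site) in the DESeq2 Wald test with the block and 0 to 1 over the left-out numbers. In edgeR the block changed no call between the groups, and in the DESeq2 Wald test with the block Aldoc passed as well. Genes called between library numbers were 1 to 5 over the left-out numbers, and sites 3 by the DESeq2 likelihood ratio test and 3 to 6 over the left-out numbers. The difference in the Pfkm share ranged from -3.13 to 17.4 points over the left-out libraries. Over all settings that leave out libraries, the log2 fold change turned for Aldoa (-0.39 to 0.0566), Eno1 (-0.33 to 0.65), Hk1 (-0.25 to 0.11), Ldhb (-0.48 to 0.0745), Ldhb site 2 (-0.60 to 0.0702), Pfkm (-0.96 to 1.21), Pfkm site 2 (-0.0448 to 1.46) and Pfkm site 3 (-1.25 to 1.32). With the block it was -0.0513 for Pfkm site 3. The cause was not tested. Aldoa site 2, Pfkm site 2 and Pfkp site 4 were removed by filterByExpr and have no value there. In the remaining settings no direction changed among the 8 genes, the named genes of the 2 pathway lists and the sites compared. Directions over the settings were not compared for the marker genes, the Eno1 site, Hk1 site 6, the most 3′ Hk1 site and Pfkp site 5. The DESeq2 Wald test with the block gave an adjusted p to 6 of 8 genes and 6 of 29 sites. Depth limits Pgk1 and most single sites, with fewer than 100 reads in all at 18 of the 29.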
